A study of Mus musculus with 17 samples.

Results

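The genes described here encode the machinery of mitosis: the cyclins and kinases that start it, the kinetochore and spindle parts that move the chromosomes, the checkpoint that times their separation, and the proteins that cut the cell apart. The 38 genes were chosen by name, as all probes whose gene name in the array files is one of them under its current or an older symbol. All 38 were found, on 54 of 39429 probes, and all 38 passed the filter on dim probes, out of 25977 genes tested. The brightest probe stands for a gene that has several.

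RNA was measured on 17 single-colour Agilent arrays in 5 groups, all from mice that carry Foxl1-Cre and a RosaYFP reporter and were 6 to 10 weeks of age. The Foxl1 promoter drives Cre, so that a cell which has expressed it, and its descendants, carry the yellow fluorescent protein. The groups were undifferentiated adult hepatic progenitor cells (4 arrays), cells differentiated in vitro toward hepatocytes, here called the hepatocyte condition (4 arrays), cells differentiated in vitro toward cholangiocytes, the bile duct epithelium, here called the cholangiocyte condition (3 arrays), primary hepatocytes (4 arrays) and primary cholangiocytes (2 arrays). The design compared the differentiated with the primary cells. The labels give no time in culture and no number of animals, and nothing says that the arrays of a group came from separate cultures or animals, so a p-value reflects the spread among these arrays alone, which may be technical.

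Cells enter mitosis when Cdk1, bound to its cyclins, is switched on by the phosphatase Cdc25c and kept on with the help of Plk1. Chromosomes are then captured by microtubules at their kinetochores, and the spindle checkpoint holds back the anaphase-promoting complex until all are attached. Most of these genes are transcribed late in the cell cycle, by the MuvB complex with Foxm1 or Mybl2 acting through promoter elements called CHR, often next to CCAAT boxes bound by NF-Y. In the adult liver nearly all hepatocytes rest outside the cell cycle.

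The promoters of the 38 genes share letters that the choice by name did not use. Windows of 250 bases before to 50 bases after an annotated transcript start (RefSeq, GRCm38.p6) were found for 31 of the 38. Melk, Mad2l1, Birc5, Nuf2 and Nusap1 have neither motif in that window. The CHR was searched as TTTGAA or TTCGAA and the CCAAT box as CCAAT, both on either strand, so that TTCAAA and ATTGG also count. A CHR and a CCAAT box can share a base at their ends. A CHR was present in 23 of 31 windows (74.2%), against 19.2% of all 32851 windows of the same length. A CCAAT box was present in 23 of 31 (74.2%), against 37.4% of all windows. Both stood in 20 of 31 (64.5%), against 7.52% of all windows. Among the 32 genes of DNA replication with a window, 18.8% held a CHR, and among 58 other mitosis genes 62.1% did. A match is a description of the letters and not a measured binding site. The 150 bases just before the start are shown for 6 genes whose motifs lie upstream of it, in the gene's own direction, with every CHR and CCAAT box in capitals. They are at chr10:69352913-69353062, minus strand (Cdk1), chr4:118437344-118437493, minus strand (Cdc20), chr2:164769779-164769928, plus strand (Ube2c), chr15:102296143-102296292, plus strand (Espl1), chr19:37376232-37376381, plus strand (Kif11) and chr7:135716380-135716529, minus strand (Mki67).
Cdk1: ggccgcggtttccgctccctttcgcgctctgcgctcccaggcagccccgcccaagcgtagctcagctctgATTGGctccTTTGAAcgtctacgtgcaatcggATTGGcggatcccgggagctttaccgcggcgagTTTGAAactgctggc
Cdc20: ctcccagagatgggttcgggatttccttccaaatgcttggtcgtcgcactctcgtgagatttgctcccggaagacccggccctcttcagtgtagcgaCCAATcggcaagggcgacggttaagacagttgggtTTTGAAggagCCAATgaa
Ube2c: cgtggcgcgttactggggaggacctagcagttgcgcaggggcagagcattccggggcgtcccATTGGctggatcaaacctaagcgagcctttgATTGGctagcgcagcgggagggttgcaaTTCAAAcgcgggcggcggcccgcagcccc
Espl1: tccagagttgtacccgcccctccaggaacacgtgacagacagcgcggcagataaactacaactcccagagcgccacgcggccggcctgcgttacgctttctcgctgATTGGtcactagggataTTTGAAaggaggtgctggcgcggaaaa
Kif11: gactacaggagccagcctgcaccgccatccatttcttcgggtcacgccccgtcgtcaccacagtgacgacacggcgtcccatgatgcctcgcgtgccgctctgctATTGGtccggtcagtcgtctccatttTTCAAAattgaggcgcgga
Mki67: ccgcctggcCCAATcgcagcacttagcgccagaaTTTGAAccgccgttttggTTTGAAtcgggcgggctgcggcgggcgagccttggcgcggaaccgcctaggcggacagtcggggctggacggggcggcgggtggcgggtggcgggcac
Cdk1 has 2 pairs, with the CHR starting 9 and 33 bases after the CCAAT box before it. In Cdc20, Ube2c, Espl1 and Kif11 that distance is 35, 28, 17 and 26 bases. Mki67 has 2 CHR matches that start 25 and 43 bases after one CCAAT box, farther from the start than in the other five.

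**Figure D1:**
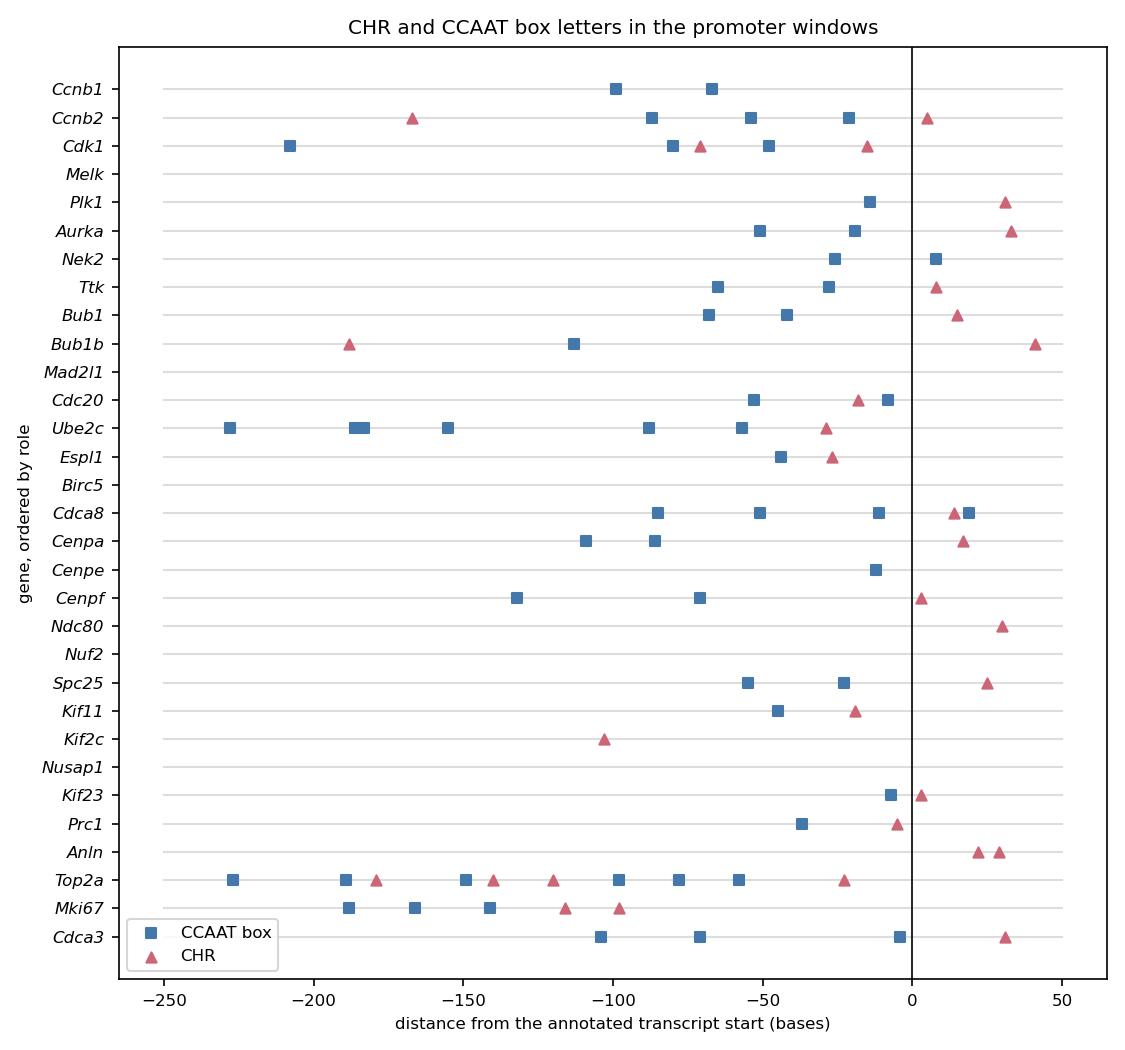
Position of CHR letters (triangles) and CCAAT boxes (squares) in the promoter windows of 31 mitosis and spindle genes, with the distance of each motif's first base from the annotated transcript start on the horizontal axis in bases. In 23 of the 31 windows a CHR is present, and 5 windows hold neither motif.

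Each value is the log2 of a probe's intensity divided by the 75th percentile of its array, so that 0 means as bright as the probe at that percentile. They serve to compare one gene between groups, not the RNA amounts of different genes. The sums of marker genes given below add probe intensities, so a bright probe weighs most in them. The 75th percentile itself was 544 to 983 intensity units on the primary hepatocyte arrays and 1739 to 2847 on the other 13 arrays. The summed level of 10 hepatocyte marker genes (linear, in units of the 75th percentile) was 3382 to 4755 in primary hepatocytes. It was 312 to 1076 in the hepatocyte condition and 0.881 to 147 in undifferentiated cells. Cells of the cholangiocyte condition had 3.47 to 28.6 and primary cholangiocytes 0.795 to 12.7. Fgb made up much of the hepatocyte condition sum, with a log2 mean of 8.45 there. By limma, at an adjusted p under 0.05, Fgb and Hpx alone of the 10 were higher there than in undifferentiated cells. None was lower, and 7 of the 10 were lower than in primary hepatocytes, where 33.7% of all genes were. The summed level of 10 biliary markers was 199 to 277 in primary cholangiocytes and 80.9 to 173 in undifferentiated cells and both conditions. In primary hepatocytes it was 0.702 to 1.30, and Krt7 and Epcam were above background on no array there. Sums of endothelial and red cell markers stood higher in primary hepatocytes. That of 8 endothelial markers was 11.3 to 14.0 there against 1.42 to 4.07 elsewhere, although Flt1 had its lowest group mean there (-1.93). That of the 3 red cell markers tested was 14.4 to 20.4 against at most 0.0819 elsewhere. Nearly all of this red cell sum was Alas2, with a log2 mean of 4.09 in primary hepatocytes, against -1.53 for Hba-a1 and -4.70 for Slc4a1. The sum of the 7 stellate and fibroblast markers tested was 1.11 to 3.11 in primary hepatocytes and 0.272 to 3.15 in the hepatocyte condition, against 0.0892 to 0.140 in undifferentiated cells and at most 0.672 in the other two groups. That of 10 leukocyte and Kupffer markers overlapped between groups, at 11.8 to 18.8 in primary hepatocytes and 9.98 to 19.1 in the cholangiocyte condition. Of these 10, 8 were lower and 1, Ptprc, was higher in the hepatocyte condition than in primary hepatocytes, where 33.7% and 26.0% of all genes were. Clec4f had a log2 mean of -2.30 in primary hepatocytes, against -8.09 or lower elsewhere.

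Across the 5 groups one order was shared by most of the 38 genes. In 31 of 38 the group means ran from the cholangiocyte condition, the highest, through undifferentiated cells, primary cholangiocytes and the hepatocyte condition to primary hepatocytes, the lowest. Aurka, Ccnb2, Nek2, Cenpa and Bub1b kept that order with the first pair exchanged, and Spc25 and Cenpf with the last pair exchanged. The share of all genes with this order was not counted. Of the neighbours in this order, no gene passed the test between the cholangiocyte condition and undifferentiated cells, where 1.39% of all genes did. The median difference of that pair was 0.19 over the 38 genes and 0.15 over all genes, and the order of the pair depended on the scaling. Undifferentiated cells were higher than primary cholangiocytes in 5, where 10.5% of all genes passed as higher, and the hepatocyte condition was higher than primary hepatocytes in 34, where 26.0% did. Primary cholangiocytes and the hepatocyte condition, the middle pair, were not tested against each other. The spread within a group was widest in primary hepatocytes, where the median SD of the 38 genes was 0.74, against 0.65 in the hepatocyte condition, 0.47 in primary cholangiocytes, 0.33 in the cholangiocyte condition and 0.36 in undifferentiated cells. In primary hepatocytes 17 of the 38 genes were above background on every array and 9 on none, so part of that spread is of signal below background. In each other group at least 36 were above background on every array, and primary cholangiocytes had 2 arrays.

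**Figure D2:**
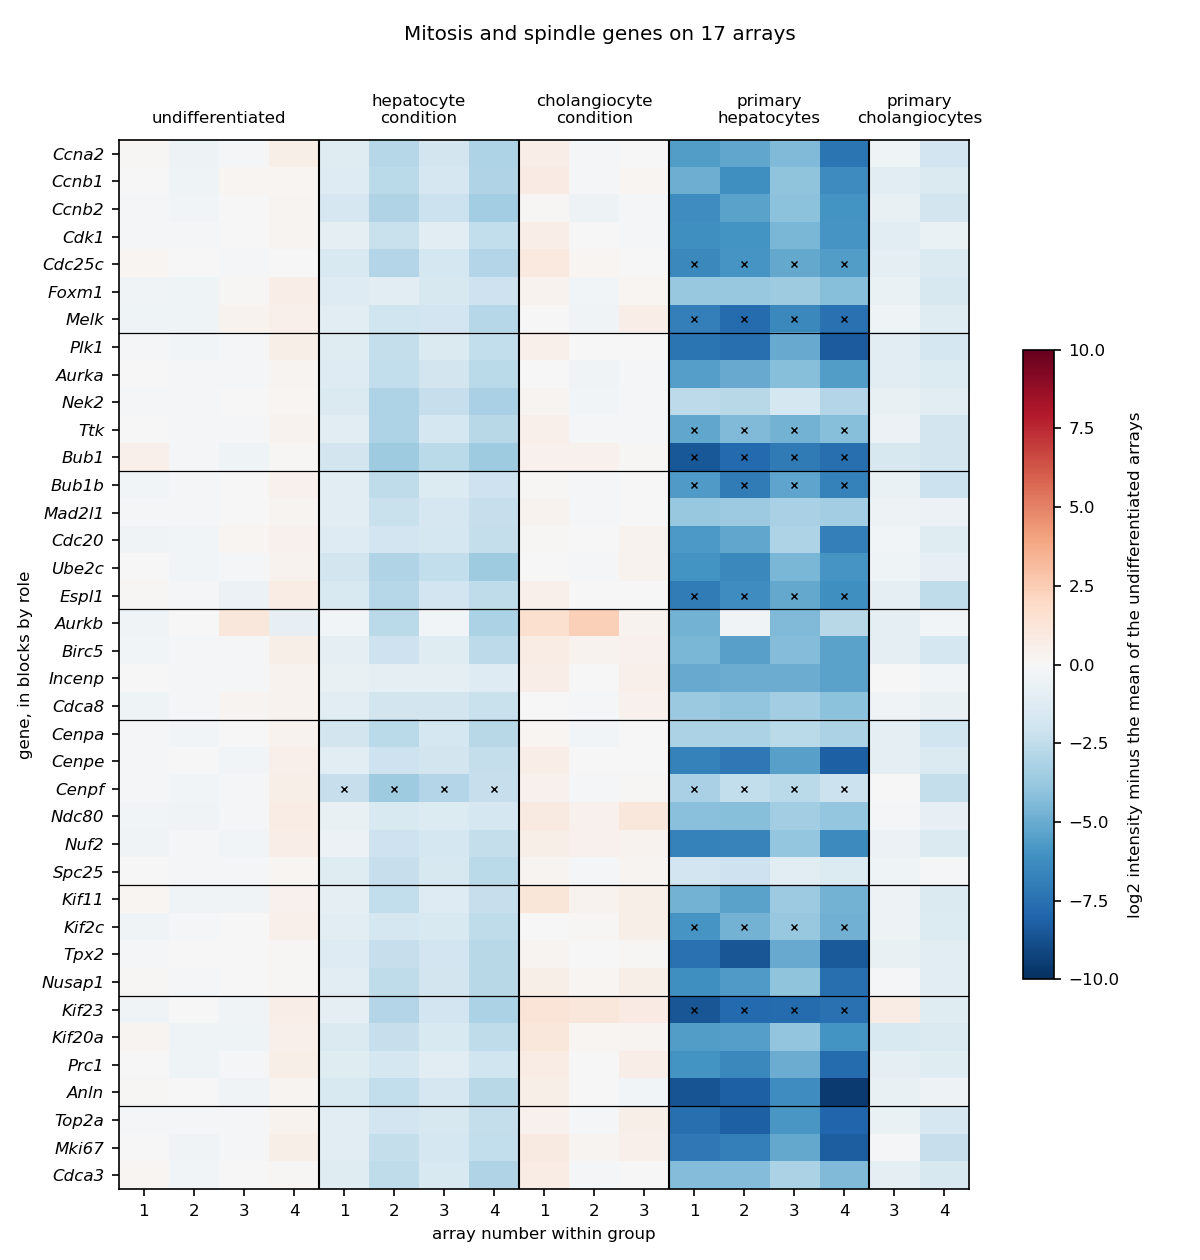
Log2 intensity of each of the 38 genes on each of the 17 arrays, minus that gene's mean over the 4 undifferentiated arrays; blue is lower and red is higher, black lines part the groups and the roles, and a cross marks a gene above background on no array of that group. The hepatocyte condition is lighter blue than primary hepatocytes in nearly every gene, and the cholangiocyte condition stays near white.

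In the hepatocyte condition 36 of the 38 genes were lower than in undifferentiated cells and none was higher (limma, adjusted p under 0.05). Of all 25977 genes 15.3% passed this test and 7.67% passed as lower. The median difference of the 38 genes was -1.95 on the log2 scale, against 0.08 over all genes, and the fitted differences of single genes lay between -2.92 (Bub1) and -1.003 (Incenp). In 37 of 38 every hepatocyte condition array was below every undifferentiated array, which was so for 11.4% of all genes. Nuf2 and Aurkb did not pass. These are bulk samples, so fewer dividing cells and less RNA per dividing cell cannot be told apart. Markers of other liver cells moved in the same comparison. Of the 7 stellate and fibroblast markers tested 2 were higher in the hepatocyte condition, Acta2 and Dcn, and none was lower. Dcn (decorin) went from -5.80 ± 0.55 to -0.73 ± 1.61 (SD, n = 4 each), while Pdgfrb was above background on 1 hepatocyte condition array. Of 10 leukocyte and Kupffer markers Ptprc and Cd74 were higher and Cd68 was lower, with a summed level of 9.68 to 11.7 against 9.15 to 13.9 in undifferentiated cells, and Lyz2 and Clec4f were above background on no hepatocyte condition array. Of 8 endothelial markers Clec4g was higher. The part of these cells in the result was not tested.

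Among the cyclins and the genes that drive entry into mitosis, all 7 were lower in the hepatocyte condition. Ccnb2, a mitotic cyclin, had values of 2.96, 2.83, 3.14 and 3.33 on the undifferentiated arrays and 1.42, 0.07, 0.92 and -0.40 on the hepatocyte condition arrays. The groups did not overlap, and the difference of -2.56 ± 0.46 (SE) (5.89-fold, adjusted p = 0.00204) was the largest of the 7. Foxm1, the transcription factor that activates many genes of this list, changed least, from -0.17, -0.22, 0.33 and 0.82 to -1.07, -0.96, -1.38 and -1.86, a difference of -1.51 ± 0.30 (SE) with adjusted p = 0.00379. Between them lay Cdc25c, the Cdk1-activating phosphatase, at -2.27, the cyclins Ccna2 and Ccnb1 at -2.24 and -2.19, the kinase Melk at -1.96 and Cdk1 itself at -1.69.

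All 5 mitotic kinases were lower. Bub1, a kinase of the kinetochore and the spindle checkpoint, read 0.42, -0.22, -0.45 and 0.05 in undifferentiated cells and -1.92, -3.58, -2.77 and -3.62 in the hepatocyte condition. That gap of -2.92 ± 0.37 (SE), or 7.58-fold (adjusted p = 0.000174), was the widest among the 37 genes detected in both groups. Plk1, which acts at entry, at the centrosomes and in cytokinesis, read 2.96, 2.81, 2.91 and 3.65 and then 1.88, 0.73, 1.64 and 0.61, with no overlap and a difference of -1.87 ± 0.54 (SE) (adjusted p = 0.0316). Nek2, a centrosome kinase, differed by -2.52, the checkpoint kinase Ttk (Mps1) by -2.18 and the spindle pole kinase Aurka by -2.07.

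The 5 genes of the checkpoint and of the anaphase-promoting complex were also all lower. Ube2c, the ubiquitin-conjugating enzyme that works with that complex, stood at 1.82, 1.59, 1.74 and 2.20 in undifferentiated cells and at 0.01, -1.20, -0.59 and -1.72 in the hepatocyte condition. It differed by -2.72 ± 0.39 (SE), 6.57-fold, with adjusted p = 0.000527. Espl1, the separase that cuts cohesin, followed with -2.22, then Mad2l1, the checkpoint protein that restrains Cdc20, with -1.84, and Cdc20, the activator of the complex, with -1.82 and adjusted p = 0.048. The checkpoint kinase-like protein Bub1b was at -1.29, -1.19, -1.03 and -0.63 and -2.20, -3.60, -2.39 and -3.10, a difference of -1.79 ± 0.43 (SE).

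Of the 4 subunits of the chromosomal passenger complex, which corrects faulty attachments, 3 were lower. Cdca8 (borealin) went from 1.37, 1.72, 2.08 and 2.14 to 0.68, 0.03, -0.04 and -0.42, a difference of -1.77 ± 0.25 (SE) (adjusted p = 0.00042), and Birc5 (survivin) differed by -1.71. Incenp, the scaffold of the complex, changed least of all 38, from 3.43, 3.36, 3.30 and 3.80 to 2.70, 2.46, 2.55 and 2.17, a difference of -1.003 ± 0.18 (SE) with adjusted p = 0.00206, the smallest standard error of the 38 genes. Its kinase Aurkb was dim and scattered, at -4.44, -4.13, -2.97 and -4.96 in undifferentiated cells and -4.40, -6.79, -4.37 and -7.29 in the hepatocyte condition. These ranges overlap, and the difference of -1.59 ± 0.92 (SE) did not pass (adjusted p = 0.297).

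Among 6 genes of the kinetochore and centromere 5 were lower. Cenpf, a large kinetochore protein, was above background on all 4 undifferentiated arrays (-5.66, -5.77, -5.72 and -4.90) and on none in the hepatocyte condition (-7.82, -9.09, -8.43 and -7.85), so its difference is given as a bound: at least 3.46-fold lower (adjusted p = 0.000929). Such a bound sets the bright group's mean against the lowest signal that counts as above background on the dim group's arrays, or the probe's own where that is higher. Cenpa, the histone that marks centromeres, differed by -2.26, the outer kinetochore protein Spc25 by -1.94 and the motor Cenpe by -1.87. Ndc80, the microtubule-binding subunit of the complex that bears its name, was at -2.30, -2.33, -2.10 and -1.24 and -2.77, -3.48, -3.39 and -3.76, a difference of -1.36 ± 0.30 (SE) (adjusted p = 0.00697). Its partner Nuf2 was at -1.86, -1.61, -1.76 and -0.86 and -2.14, -3.58, -3.27 and -3.90 and narrowly missed the threshold although its arrays do not overlap (-1.70 ± 0.56 (SE), adjusted p = 0.0559).

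The spindle motors and microtubule-binding proteins were lower in 4 of 4. Tpx2, which nucleates spindle microtubules and activates Aurka, read 0.45, 0.52, 0.49 and 0.69 and then -0.72, -1.74, -1.41 and -2.27 (-2.08 ± 0.58 (SE), adjusted p = 0.0257). Nusap1, a microtubule bundler, differed by -2.07 and the microtubule depolymerase Kif2c by -1.73. Kif11, the motor that pushes the spindle poles apart, read -1.84, -2.38, -2.40 and -1.66 and -3.00, -4.50, -3.33 and -4.37, a difference of -1.73 ± 0.41 (SE).

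Cytokinesis genes were lower in 4 of 4. Kif23, a motor of the central spindle, was at -0.45, -0.10, -0.45 and 0.54 in undifferentiated cells and -0.99, -3.03, -2.02 and -3.31 in the hepatocyte condition. The hepatocyte condition arrays spread over more than 2 log2 units, with arrays 2 and 4 lowest, and all were below the undifferentiated ones (-2.22 ± 0.50 (SE), 4.67-fold, adjusted p = 0.00817). Anln, the actin-binding protein anillin of the cleavage furrow, differed by -2.12 and the motor Kif20a by -1.96. Prc1, which cross-links the central spindle, was at 2.13, 1.63, 1.83 and 2.61 and 0.86, 0.32, 0.95 and 0.07 and differed by -1.50 ± 0.45 (SE). The remaining 3 genes were lower as well: Cdca3, a trigger of mitotic entry, by -2.07, the proliferation marker Mki67 (Ki-67) by -1.90 (adjusted p = 0.0434) and the topoisomerase Top2a by -1.74.

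**Figure D3:**
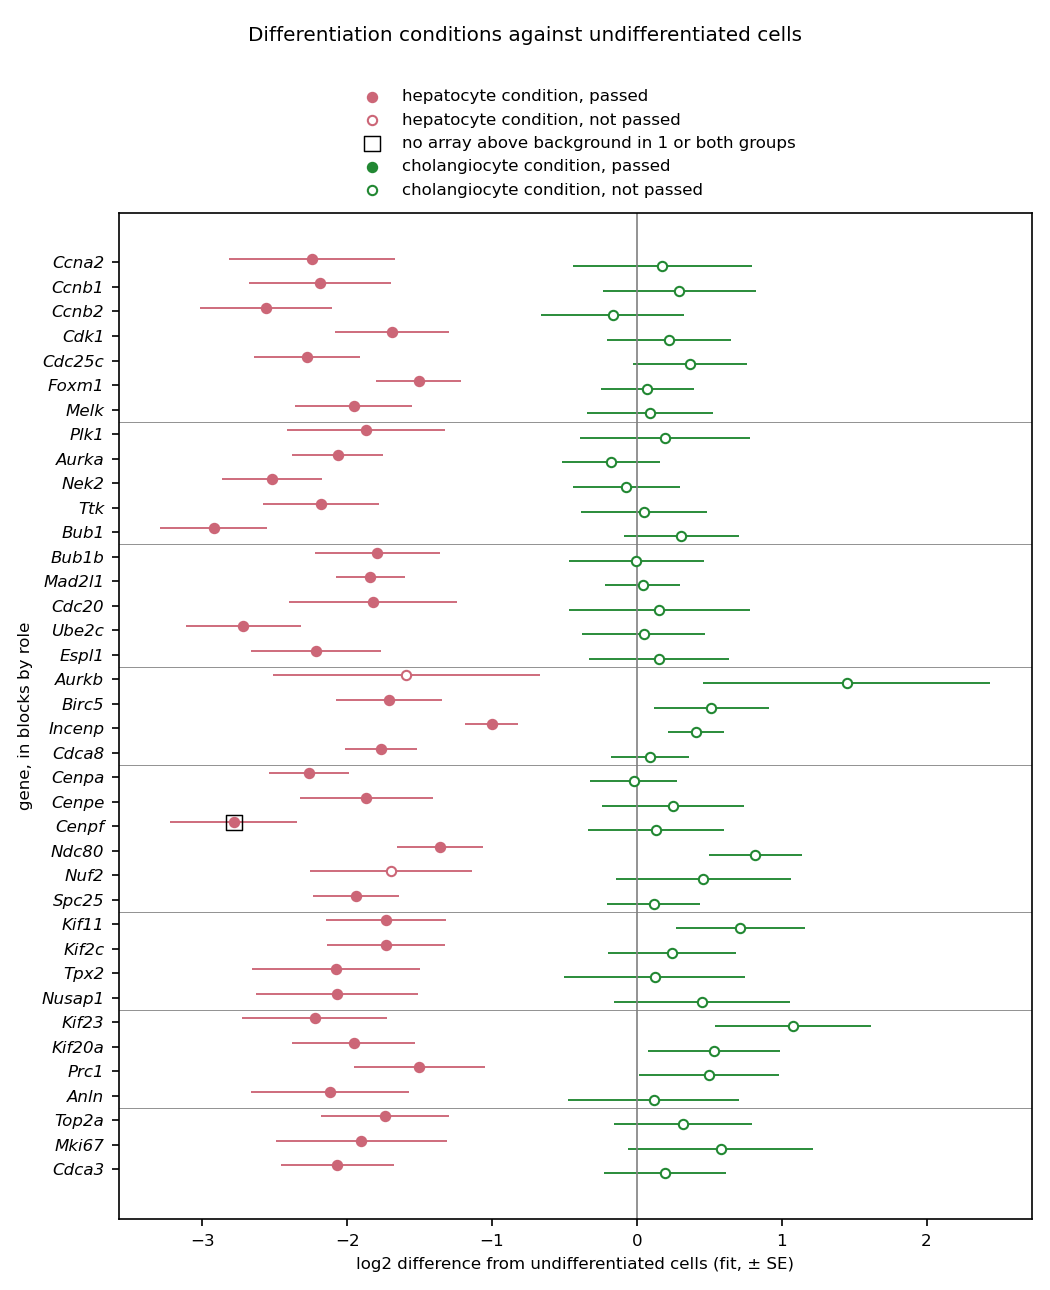
Fitted log2 difference from undifferentiated cells, with its standard error, of each of the 38 genes in the hepatocyte condition (red) and the cholangiocyte condition (green); filled points passed at an adjusted p under 0.05. The hepatocyte condition points lie between -2.92 and -1.003, all left of 0, while the cholangiocyte condition points lie around 0 and none is filled.

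The 4 hepatocyte condition arrays were not alike. Array 1 was the highest of the 4 in 34 of the 38 genes and array 4 the lowest in 32, and the median over the genes was -0.36, -1.29, -0.67 and -1.75 on arrays 1 to 4. The albumin gene Alb read 7.63, -4.75, 7.58 and -3.65 on the same arrays, so the 2 arrays with high Alb were also the 2 with higher mitotic genes. Fgb, the fibrinogen beta chain, was alike on all 4 (8.19 to 8.69). Among the undifferentiated arrays, array 4 was the highest in 32 of 38 genes and had the lowest Alb, -8.74, against 6.01, 1.26 and -4.44 on arrays 1 to 3. These are single arrays, and the part of this spread in the result was not tested. Within each of the 3 slides that held 1 array of both groups, all 38 genes were lower in the hepatocyte condition, with medians of -2.19, -2.60 and -1.13.

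In the cholangiocyte condition none of the 38 genes passed against undifferentiated cells by limma, where 1.39% of all genes did, and 1 of 38 had an unadjusted p under 0.05. The median difference was 0.19, close to the 0.15 over all genes. Bub1 was at 0.40, 0.34 and 0.04 on the 3 cholangiocyte condition arrays, Plk1 at 3.62, 3.12 and 3.08 and Ube2c at 1.83, 1.66 and 2.18. All 3 overlap the undifferentiated arrays, and their differences were 0.31 ± 0.40 (SE), 0.19 ± 0.59 (SE) and 0.05 ± 0.43 (SE). The highest values were those of Aurkb, 1.45 ± 0.99 (SE), Kif23, 1.08 ± 0.54 (SE), and Ndc80, 0.82 ± 0.32 (SE), with adjusted p of 0.572, 0.426 and 0.296. Kif23 read 1.20, 0.99 and 0.70, and it and Nusap1 were the 2 genes whose arrays did not overlap, against 8.83% of all genes in that direction. With standard errors from 0.19 to 0.99 these data do not show that the levels were equal.

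Both conditions were also set against each other, with the same 4 hepatocyte condition arrays as in the comparison with undifferentiated cells. The hepatocyte condition was lower in 37 of 38 genes and higher in none, where 15.5% of all genes passed and 8.47% passed as lower, and the median difference was -2.23. The largest among genes detected in both groups were Kif23, -3.30 ± 0.54 (SE) or 9.85-fold (adjusted p = 0.00115), and Bub1, -3.23 ± 0.40 (SE) or 9.38-fold (adjusted p = 0.000147). Incenp was again the smallest, at -1.41 ± 0.19 (SE). Nuf2 passed here (-2.16 ± 0.60 (SE), adjusted p = 0.0268) and Aurkb did not (-3.04 ± 0.99 (SE), adjusted p = 0.0537), although no array of the 2 conditions overlapped in any of the 38 genes, which held for 16.9% of all genes in that direction. This comparison is also the test of whether the change from undifferentiated cells differed between the 2 conditions.

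Primary hepatocytes had the lowest group mean in 36 of the 38 genes. Of the 38 genes 9 were above background on no primary hepatocyte array: Cdc25c, Melk, Ttk, Bub1, Bub1b, Espl1, Cenpf, Kif2c and Kif23. All 38 were lower there than in undifferentiated cells, where 64.2% of all genes passed and 26.6% passed as higher in undifferentiated cells. Anln, detected on 2 of the 4 primary hepatocyte arrays, was at -6.27, -5.78, -3.82 and -7.23 in primary hepatocytes against 2.45, 2.36, 2.01 and 2.64 in undifferentiated cells, a difference of 8.14 ± 0.55 (SE) (282-fold, adjusted p = 1.46e-08). Spc25 had the smallest gap, 1.64 ± 0.30 (SE). For Bub1, Melk and Kif23 the bounds were at least 65.0-fold, 58.5-fold and 62.1-fold higher in undifferentiated cells. With the normexp background correction, 35 genes passed, the median fell from 5.37 to 3.32 and Cenpf changed sign.

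The hepatocyte condition was also compared with the primary hepatocytes. It was higher in 34 of 38 genes and lower in none, where 59.7% of all genes passed and 26.0% passed as higher, and the median difference was 3.35, or 3.13 with genes below background set at their bounds, against -0.33 over all genes. Anln stood at 0.88, -0.10, 0.67 and -0.45 in the hepatocyte condition, far from its values in primary hepatocytes given above (6.03 ± 0.55 (SE), 65.2-fold, adjusted p = 4.08e-07). Plk1 read -4.23, -4.44, -1.99 and -5.26 in primary hepatocytes, above background on 3 of 4 arrays, and was 5.19 ± 0.54 (SE) higher in the hepatocyte condition (36.6-fold, adjusted p = 1.74e-06). Mki67 read -4.28, -3.96, -2.21 and -5.36 in primary hepatocytes and 1.85, 0.53, 1.11 and 0.45 in the hepatocyte condition (4.94 ± 0.59 (SE)). In all 3 the groups are separated by more than 2 log2 units. Bub1 was at least 8.57-fold higher and Kif23 at least 13.3-fold, since neither was above background on any primary hepatocyte array.

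The 4 genes that did not pass in this comparison were Spc25, Nek2, Cenpf and Aurkb. Spc25 read 1.84, 0.75, 1.42 and 0.36 in the hepatocyte condition and 1.11, 0.93, 1.88 and 1.63 in primary hepatocytes, overlapping ranges with a difference of -0.29 ± 0.30 (SE) (adjusted p = 0.406). Nek2 read -2.13, -3.72, -2.98 and -3.90 and -3.26, -3.44, -2.45 and -3.59, also overlapping, with 0.00 ± 0.34 (SE) (adjusted p = 0.997). Both were detected on all 8 arrays. Cenpf was below background in both groups and has no fold, and Aurkb was 1.47 ± 0.92 (SE) with adjusted p = 0.182. Cenpa, at -0.79, -1.63, -0.75 and -1.77 and -2.10, -2.16, -1.69 and -2.14, passed with a small difference of 0.79 ± 0.28 (SE) and overlapping arrays.

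Primary hepatocyte array 3 stood above the other 3 in 34 of the 38 genes, for example -1.99 for Plk1 where the others were at -4.23 or below, and its median over the genes was -3.10 against -4.26, -4.52 and -5.73. Slide 2 held this array and undifferentiated array 4, and the difference between these 2 had a median of 4.68, with all 38 genes higher in undifferentiated cells. With the normexp background correction, which raises dim probes, the median difference between the hepatocyte condition and primary hepatocytes was 1.56, 28 genes passed as higher and 1, Cenpf, as lower, and Ttk and Kif2c changed sign. For genes that were dim on the primary hepatocyte arrays the size of the difference, and for Ttk and Kif2c its direction, depended on the background correction. The part that the endothelial, red cell and other marker transcripts summed above have in these differences was not tested.

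**Figure D4:**
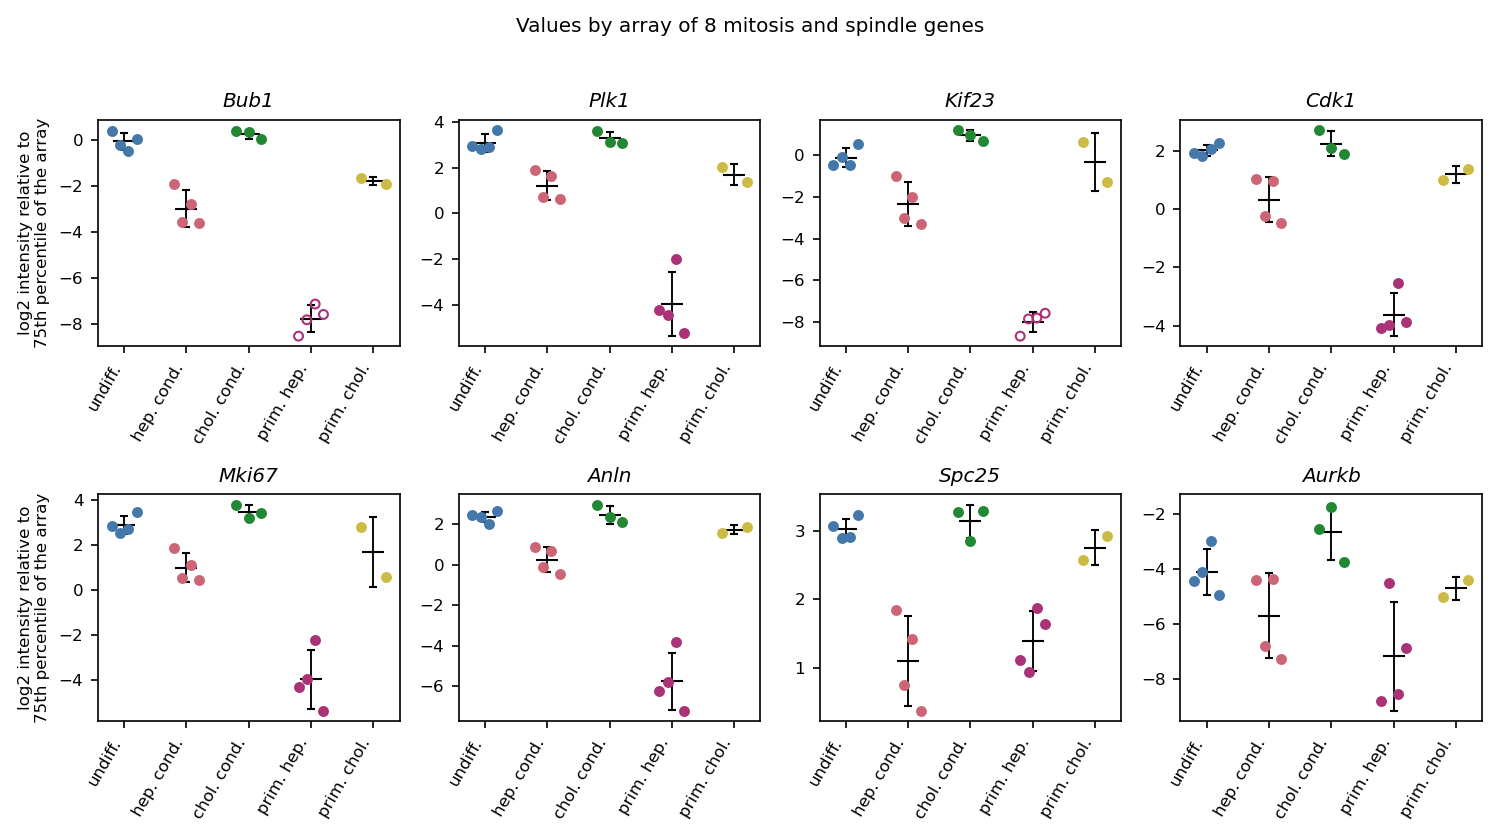
Log2 intensity relative to the array's 75th percentile of 8 genes on each array, by group, with the mean and SD as a bar and whiskers; open circles mark groups in which the gene was above background on no array. Bub1, Plk1, Kif23, Cdk1, Mki67 and Anln fall from undifferentiated cells to the hepatocyte condition and again to primary hepatocytes, Spc25 overlaps between the last pair, and Aurkb is scattered.

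The second pair of differentiated and primary cells was the biliary one. The cholangiocyte condition was higher than primary cholangiocytes in 9 of 38 genes and lower in none, where 19.6% of all genes passed and 12.0% passed as higher. The 9 were Foxm1, Ndc80, Cenpa, Cdc25c, Kif11, Birc5, Espl1, Bub1 and Kif20a. Bub1 read -1.64 and -1.90 on primary cholangiocyte arrays 3 and 4 and 0.40, 0.34 and 0.04 in the cholangiocyte condition, a difference of 2.03 ± 0.47 (SE) (4.08-fold, adjusted p = 0.00837). Kif20a read 0.04 and 0.13 against 2.71, 1.78 and 1.87, and its difference of 2.04 ± 0.55 (SE) was the largest that passed (adjusted p = 0.0177). The median over the 38 genes was 1.32, and in 36 of 38 the arrays did not overlap, where this held for 26.0% of all genes in that direction.

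That count rested on single arrays. No gene passed without primary cholangiocyte array 4, 14 passed without primary hepatocyte array 3, 3 without cholangiocyte condition array 1 and 5 without its array 3. Primary cholangiocyte array 3 was above array 4 in 33 of the 38 genes, as for Mki67 with 2.78 and 0.59 and Kif23 with 0.65 and -1.30, while Spc25 (2.58 and 2.94), Anln (1.58 and 1.89), Cdk1 (0.99 and 1.38), Kif20a and Aurkb ran the other way. Undifferentiated cells were higher than primary cholangiocytes in 5 of 38 genes, Bub1, Espl1, Cenpa, Aurka and Foxm1, where 19.0% of all genes passed and 10.5% passed as higher, with a median of 1.07. That count is near the background and is no result about these genes. None of the 38 passed without primary cholangiocyte array 4 or with the slide as a block, 3 passed without undifferentiated array 1, without its array 3 or without cholangiocyte condition array 2, and 2 without undifferentiated array 4.

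Primary hepatocytes were lower than primary cholangiocytes in 37 of 38 genes, where 49.6% of all genes passed and 21.7% passed as lower. The median difference was -4.41, or -3.96 with dim genes at their bounds. Anln differed by -7.51 ± 0.67 (SE) (adjusted p = 4.85e-07), Tpx2 by -6.46 ± 0.71 (SE) and Incenp by -4.90 ± 0.22 (SE). Aurkb did not pass (-2.47 ± 1.13 (SE), adjusted p = 0.0829). With the normexp correction the median was -2.52, with 31 genes lower and 1, Cenpf, higher.

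**Figure D5:**
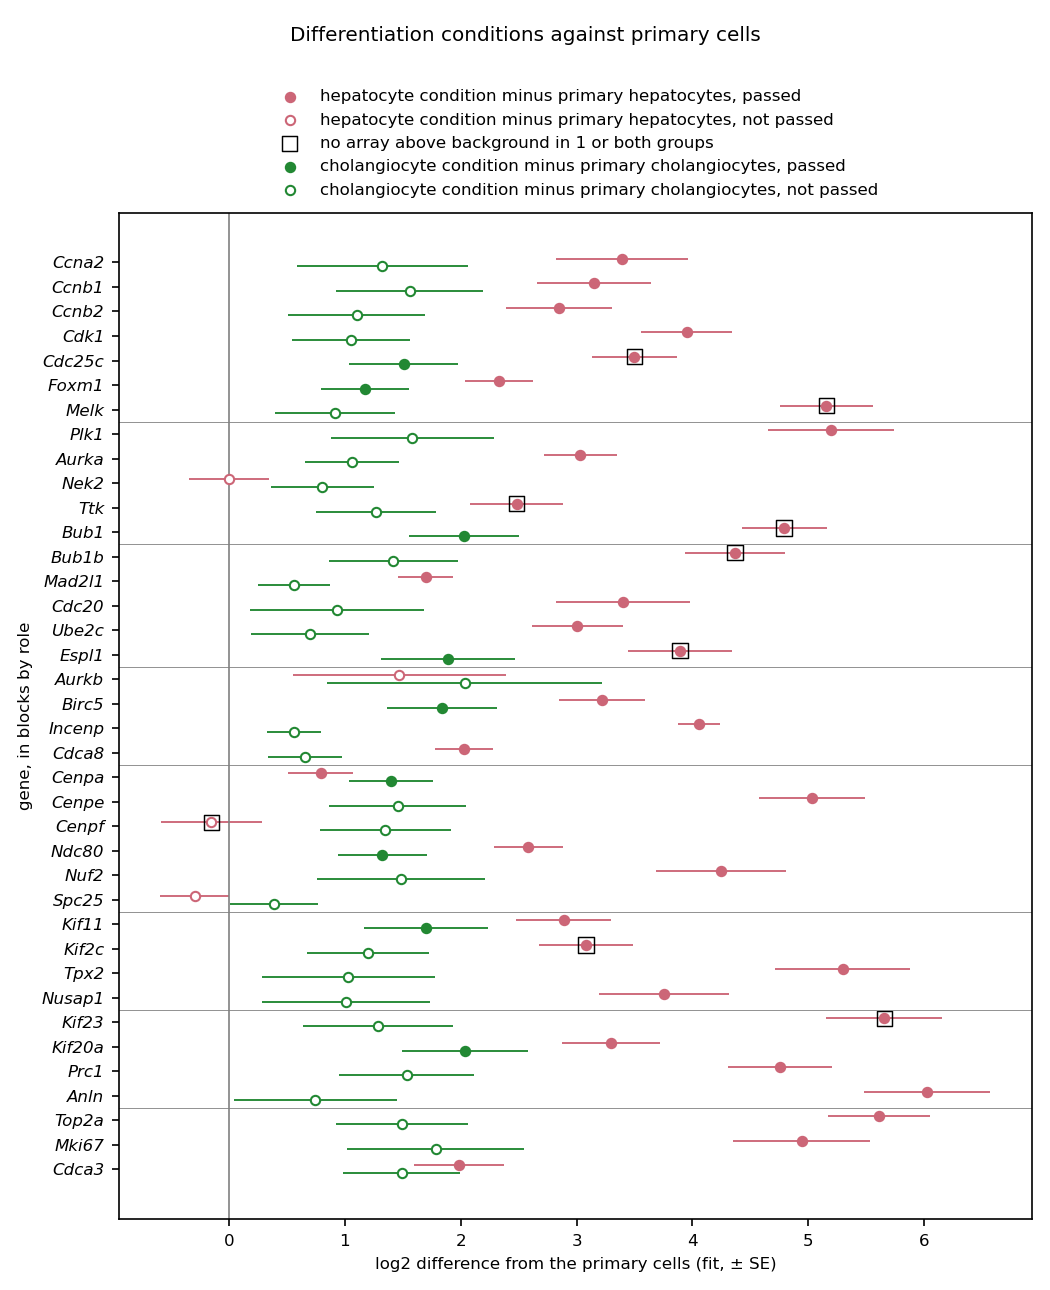
Fitted log2 difference, with its standard error, of the hepatocyte condition from primary hepatocytes (red) and of the cholangiocyte condition from primary cholangiocytes (green) for each of the 38 genes; filled points passed and squares mark genes above background on no array of 1 or both groups. Most red points lie to the right of the green ones, and for Nek2, Cenpa, Cenpf, Spc25 and Aurkb they lie to the left.

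Whether the gap between differentiated and primary cells was wider on the hepatocyte side was tested directly, as the hepatocyte condition minus primary hepatocytes less the cholangiocyte condition minus primary cholangiocytes. It passed above 0 in 22 of 38 genes and below 0 in none, where 37.8% of all genes passed and 15.6% passed as above 0, and its median was 1.996, against -0.44 over all genes. With the normexp correction 11 of those 22 still passed in the same direction, 6 turned negative, and over the 38 genes 12 passed above and 9 below 0. The 11 were Anln, Aurka, Cdca8, Cdk1, Cenpe, Incenp, Mad2l1, Mki67, Plk1, Prc1 and Ube2c. For 2 of these, other probes gave other values: those of Cdk1 gave -1.89 ± 0.73 (SE) (adjusted p = 0.0563) and 3.64 ± 0.94 (SE), against 2.90 ± 0.64 (SE) for the probe used, and those of Mad2l1 gave -0.38 ± 0.42 (SE) and 0.13 ± 0.42 (SE), against 1.13 ± 0.39 (SE). Anln had 5.28 ± 0.89 (SE) (adjusted p = 0.000352) and Incenp 3.49 ± 0.29 (SE) (adjusted p = 6.54e-07), the smallest error of the 38. Of the 22 genes 7 were above background on no primary hepatocyte array, and for these the size is known only as a bound, from at least 0.11 (Cdc25c) to at least 2.997 (Melk) on the log2 scale.

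Other genes of the cell cycle were read from 4 lists of known members. Of 70 other mitosis genes 51 were lower in the hepatocyte condition than in undifferentiated cells and none was higher (median -1.68), where 7.67% of all genes passed as lower and 7.63% as higher. The largest were Depdc1a, -2.63 ± 0.46 (SE), and the motor Kif18b, -2.57 ± 0.34 (SE), while the kinetochore scaffold Knl1 at -2.01 did not pass (adjusted p = 0.0636). Of 42 DNA replication genes 16 were lower and none higher (median -0.75), led by Dbf4, the activator of the Cdc7 kinase, at -1.91 ± 0.24 (SE), and by Rrm2, a ribonucleotide reductase subunit, at -1.76 ± 0.45 (SE). Of the 14 subunits and partners of the anaphase-promoting complex outside the 38 genes, 1 was higher and 2 lower (median -0.14): Anapc10 at 1.17 ± 0.28 (SE), Anapc1 at -0.74 ± 0.13 (SE) and Ube2s, which extends the ubiquitin chains, at -0.78 ± 0.20 (SE). With 3 of 14 against 15.3% of all genes, that count is near the background.

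Among 26 regulators, the MuvB, E2F and retinoblastoma family members and the inhibitors of cyclin-dependent kinases, 8 were lower in the hepatocyte condition than in undifferentiated cells and 4 higher, against the 7.67% and 7.63% of all genes given above. Mybl2, the partner of MuvB at late cell cycle genes, was lower, at -1.92 ± 0.34 (SE) (adjusted p = 0.00196). The inhibitors did not move together. Cdkn2d (p19Ink4d) and Cdkn1b (p27) were higher, by 1.40 ± 0.17 (SE) and 0.80 ± 0.24 (SE), and so was the retinoblastoma relative Rbl2 (p130), by 1.02 ± 0.28 (SE). Cdkn2b (p15) and Cdkn2a were lower, at -2.20 ± 0.20 (SE) and -2.05 ± 0.42 (SE), and Cdkn1a (p21) at -0.82 did not pass. None of the genes of the 4 lists passed between the cholangiocyte condition and undifferentiated cells, where 1.39% of all genes did.

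The hepatocyte condition was higher than primary hepatocytes in 54 and lower in 8 of the 70 other mitosis genes, and higher in 25 and lower in 5 of the 42 replication genes, where 26.0% of all genes passed as higher and 33.7% as lower. Spc24, the partner of Spc25 in the outer kinetochore, was higher in primary hepatocytes, with -3.21 ± 0.34 (SE) for the hepatocyte condition minus primary hepatocytes, and so were Wee1, the kinase that holds Cdk1 off (-2.38), and the cyclin Ccnf (-1.69). Among the replication genes Mcm10 (-6.27) and Tk1 (-1.84) were higher in primary hepatocytes. Of the 26 regulators 14 were higher in the hepatocyte condition, 3 were lower and 9 did not pass (median 0.66). The inhibitors Cdkn1a and Cdkn2b were much higher in the hepatocyte condition, by 7.13 ± 0.33 (SE) and 5.80 ± 0.20 (SE), and Cdkn2a was at least 203-fold higher, being above background on no primary hepatocyte array.

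Several of the 38 genes had more than 1 probe. Of 16 further probes of 12 genes, 11 passed as lower in the hepatocyte condition than in undifferentiated cells and none as higher. Further probes that did not pass belonged to Cdk1 (-0.46 ± 0.45 and -1.26 ± 0.58 (SE)), Tpx2 (-0.17 ± 0.46) and Mki67 (-1.89 ± 0.64), with Nuf2 at -0.92 ± 1.22. The second probe of Mki67 thus gave the same size as the first, and those of Cdk1 and Tpx2 a smaller one. In the difference between both gaps 5 of the 16 further probes passed, all in the same direction as the probe used, and at least 1 further probe each of Cdk1, Kif2c, Mad2l1, Nuf2 and Tpx2 did not, with -1.29 ± 0.75 (SE) for Tpx2 and -1.82 ± 1.99 (SE) for Nuf2. In the comparison of the hepatocyte condition with primary hepatocytes 1 further probe each of Cdk1 (-0.73 ± 0.45 (SE)), Tpx2 (-0.67 ± 0.46 (SE)), Mad2l1 (0.36 ± 0.26 (SE)) and Nuf2 (0.52 ± 1.22 (SE)) did not pass either. In the authors' deposited table all 38 genes were lower in the hepatocyte condition than in undifferentiated cells at a false discovery rate under 5 percent, where 10.4% of the table's probes were.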

How the data were processed

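Spot intensities were read from 17 scanner files, 1 per array; the deposited intensity is the Cy3 signal after background subtraction and detrending by Agilent Feature Extraction 10.5.1.1, per the file headers, whereas the submitters' processing notes name version 9.53. Per the labels' protocols, RNA was extracted with Trizol and RNeasy, amplified with WT-Ovation Pico and labelled with Cy3. The authors' deposited table of comparisons, which has no samples, holds a signed fold change, treated here as a score, and a false discovery rate in percent; how these were made is not given in the sources used here.

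Control spots (1377 of 44397) and outlier spots were left out, 10 spots of a probe were averaged, and log2 intensity was set relative to each array's 75th percentile. Probes well above background on at least 2 arrays were kept (32305 of 39429), and the brightest probe stood for a gene. A model of 5 group means was fitted to 25977 genes with limma 3.58.1 in R 4.3.3, with 9 contrasts, lmFit, eBayes and Benjamini-Hochberg adjusted p under 0.05 as the threshold. Tables and figures were made with pandas 2.3.3 and matplotlib 3.10.9. Data were simulated for the hepatocyte condition against undifferentiated cells (25977 genes, 200 changed). Of genes changed by 1 log2 unit 28.5% were recovered, and of those changed by 2 log2 units 54%. In the measured comparison 15.3% of all genes passed. With only 200 changed genes the adjusted threshold is stricter, so these rates do not give the recovery in the measured data. The number of arrays limits the precision.

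All 38 genes could be named; values per array were given for Bub1, Plk1 and Kif23 and for the largest and smallest difference of each role, and further genes shown by array were chosen after their values were seen. From the 4 pathway lists up to 4 genes per direction that passed, and up to 2 that did not, could be named. The 38 genes, the lists and the tests were chosen with earlier results of these data known. Alternatives were the background correction, scaling, filter on dim probes, slide or replicate number as a block, the compared groups alone, the mean of a gene's probes, each array left out and the authors' table. Some genes of the lists are counted but not reported by name here.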

Additional observations from a re-analysis of the deposited data

Results flagged for a closer look

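In 7 of 114 groups of 4 arrays 1 array stood far from the other three, where chance gives about 1 in 20. Primary hepatocyte array 3 was such a high array for Cdk1 (-2.52), Cenpa (-1.69), Nuf2 (-5.42) and Cdca3 (-0.79), all log2 values relative to the array's 75th percentile. Undifferentiated array 4 was such a high array for Birc5 (4.36), Cenpf (-4.90) and Top2a (0.71).

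The gap between differentiated and primary cells was wider on the hepatocyte side than on the cholangiocyte side in 22 genes, by limma's test of the difference between both gaps. Among the cyclins and entry genes these were Melk (4.24 on the log2 scale), Cdk1 (2.90) and Cdc25c (1.99), and among the kinases Plk1 (3.61), Bub1 (2.76) and Aurka (1.97). Checkpoint and anaphase genes were Bub1b (2.95), Ube2c (2.31), Espl1 (1.9996) and Mad2l1 (1.13). The passenger complex gave Incenp (3.49) and Cdca8 (1.37), and the kinetochore Cenpe (3.57) and Nuf2 (2.76). Spindle genes were Tpx2 (4.26), Nusap1 (2.74) and Kif2c (1.88), and cytokinesis genes Anln (5.28), Kif23 (4.37) and Prc1 (3.22). Top2a (4.12) and Mki67 (3.16) complete the list. These are fitted values. Bub1, Bub1b, Cdc25c, Espl1, Kif2c, Kif23 and Melk were above background on no primary hepatocyte array, so their fitted sizes rest on signal below background; with that group at its bound they were at least 1.07, 1.83, 0.11, 0.52, 0.48, 2.45 and 2.997. Bub1, Bub1b, Cdc25c, Espl1, Kif2c and Nuf2 turned negative with the normexp background correction.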

How the results depend on the processing

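In 5 comparisons the number of the 38 genes that passed stayed within 1.5 times the reported one under every alternative run: 28 to 37 genes with single arrays left out for the hepatocyte condition against either the cholangiocyte condition or undifferentiated cells, 33 to 34 for the hepatocyte condition against primary hepatocytes, 38 for undifferentiated cells against primary hepatocytes, and 36 to 37 for primary hepatocytes against primary cholangiocytes. The difference between both gaps gave 15 to 28. No gene passed between the cholangiocyte condition and undifferentiated cells under any alternative. For the cholangiocyte condition against primary cholangiocytes (9 genes), 25 passed with normexp, 4 with median scaling, 4 with quantile normalization, 1 with the compared groups alone and 5 in the authors' deposited table, and leaving out single arrays gave 0 to 14. For undifferentiated cells against primary cholangiocytes (5 genes), 15 passed with normexp, 3 with quantile normalization, 0 with the slide as a fixed block, 2 with the compared groups alone and 16 in the authors' table, and leaving out single arrays gave 0 to 7. Without 1 primary cholangiocyte array the lone array is assumed to vary like the other groups. The cause of these changes was not tested. Relative to undifferentiated cells, median scaling moved the median of all genes from 0.08 to -0.19 in the hepatocyte condition and from 0.15 to -0.05 in the cholangiocyte condition, where the median of the 38 genes was then 0.00.

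Differences that passed turned sign with normexp and under no other fitted alternative, under which 76 of 8892 fitted values turned, all of differences that had not passed. Within slides, where there is no test, 27 of 684 differences turned, none of them of a difference that had passed, and 3 of 304 did in the authors' deposited table, among them Cenpf (fold 1.46, passed there) for the hepatocyte condition minus primary hepatocytes (-0.15 on the log2 scale here). With normexp the signs that turned, and passed before or after, were Kif2c (-0.12) and Ttk (-0.45) for the hepatocyte condition minus primary hepatocytes, Cenpf (-0.44) for undifferentiated minus primary hepatocytes, and Cenpf (0.99) and Ttk (0.32) for primary hepatocytes minus primary cholangiocytes. In the difference between both gaps they were Bub1 (-1.06), Bub1b (-0.37), Cdc25c (-1.26), Espl1 (-1.23), Kif11 (-1.19), Kif2c (-1.18), Nuf2 (-0.51) and Ttk (-1.42). Of 9234 fitted values of single genes under alternatives, 8739 kept direction and side of the threshold. Over all groups, same-numbered arrays mostly did not deviate together: 5 of 28 pairs correlated above 0.1. Of 17 arrays 5 correlated best with their own number. Same-numbered undifferentiated and cholangiocyte condition arrays did deviate together, at 0.385, 0.281 and 0.318 for arrays 1 to 3. Undifferentiated arrays 1, 2, 3 and 4 matched hepatocyte condition arrays 3, 1, 2 and 4, at 0.384, 0.442, 0.351 and 0.519. All other pairs of undifferentiated and hepatocyte condition arrays were negative. Those of undifferentiated and cholangiocyte condition arrays were negative except for undifferentiated array 4 with cholangiocyte condition arrays 1 (0.0285) and 3 (0.00796). The main fit took arrays as unpaired, and a fit with these matches was not run. With the replicate number as a block, 36 genes passed for the hepatocyte condition against undifferentiated cells, 6 for the cholangiocyte condition against primary cholangiocytes and 3 for undifferentiated cells against primary cholangiocytes. Dim signal on the primary hepatocyte arrays limits the size of differences there, with 9 genes above background on none of them.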
